A study of Mus musculus with 12 samples.

Results

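The genes followed here across the treatment groups serve cytotoxic lymphocytes: the granzymes Gzma, Gzmb, Gzmk and Gzmm, the pore-forming protein Prf1, the death ligand Fasl, the protease Ctsw, and the transcription factors Eomes and Tbx21. They were taken by symbol, with earlier results of these data known, and all 9 members were found among the 750 genes of the table. Pieces of tumors from K14-Cre-Brca1f/f;Trp53f/f mice, in which Cre under the keratin 14 promoter deletes Brca1 and Trp53 in epithelium, were grown as mammary transplants in female FVB/129P2 recipients, so that the tumors of all 4 groups carried both deletions. The sources give a starting tumor volume of 150 to 300 mm3 for the flow cytometry studies and do not give it separately for these tumors. Tumors were taken at 3 days of treatment, 3 per group. The vehicle group received DMSO in saline by intraperitoneal injection and saline in the tumor, the olaparib group received the PARP inhibitor olaparib at 50 mg/kg daily with saline in the tumor, and the ADU-S100 group received 50 μg of the STING agonist ADU-S100 in the tumor with intraperitoneal DMSO. The combination group received both drugs. The tumor injection was given once, on the first day, in 40 μl. RNA of snap-frozen chunks (100 ng) was counted with a hybridization panel of immune genes (nCounter), in which color-coded probes are counted without amplification. Tumors are named here by group and by the number the labels give them, and age was not given in the sources used here.

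Perforin, the product of Prf1, forms pores in the membrane of a target cell, and granzymes are serine proteases that enter through them and start cell death. Fas ligand kills by binding the Fas receptor, and cathepsin W is a cysteine protease of T cells and natural killer (NK) cells. EOMES and T-bet (from Tbx21) are T-box transcription factors that direct the cytotoxic program of CD8 T cells and NK cells.

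The sequence upstream of the granzyme genes was examined for the letters that T-box factors are known to bind. In the RefSeq promoter table for GRCm38.p6 (windows from 250 bases before to 50 bases after a gene's start), 8 of the 9 members had an entry, and Ctsw had none. The T-box core GTGTGA, on either strand, was present in the windows of Gzmb (1 match), Gzmk (2 matches) and the second of the 2 start sites of Gzmm (2 matches), and it was present in 14.5% of all 32851 windows. The 8-letter T-box half-site AGGTGTGA, which contains the core, was in none of the members' windows and in 1.28% of all windows. The RUNX core TGTGGT was found in Gzma, Gzmb (2 matches), the first start site of Gzmm and Prf1, against 16.8% of all windows. The matches are descriptions of letters and not of binding. The 250 bases before the start are shown for the members with a T-box core at their only listed start and for Gzma, the gene with the largest difference in the ADU-S100 group, each in the direction of transcription, with the T-box core in capitals (TCACAC is the core read on the other strand).
Gzma, chr13:113100982-113101231, minus strand: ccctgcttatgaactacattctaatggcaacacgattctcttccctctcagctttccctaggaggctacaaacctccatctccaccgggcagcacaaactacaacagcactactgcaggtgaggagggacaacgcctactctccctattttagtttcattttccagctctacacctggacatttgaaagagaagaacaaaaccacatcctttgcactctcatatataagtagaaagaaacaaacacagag
Gzmb, chr14:56262335-56262584, minus strand: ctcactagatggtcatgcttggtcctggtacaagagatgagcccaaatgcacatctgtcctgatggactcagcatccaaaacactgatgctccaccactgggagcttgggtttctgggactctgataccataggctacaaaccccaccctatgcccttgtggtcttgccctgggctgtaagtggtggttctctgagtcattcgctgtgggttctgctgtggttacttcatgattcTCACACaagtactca
Gzmk, chr13:113180966-113181215, minus strand: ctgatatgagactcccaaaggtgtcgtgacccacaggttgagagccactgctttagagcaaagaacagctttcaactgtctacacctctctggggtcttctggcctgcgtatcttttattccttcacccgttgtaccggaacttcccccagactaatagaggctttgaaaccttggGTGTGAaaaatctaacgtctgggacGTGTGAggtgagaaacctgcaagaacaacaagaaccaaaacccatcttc
In Gzmb the core lies from -15 to -10 relative to the first transcribed base, and in Gzmk the cores lie from -74 to -69 and from -49 to -44. The Gzma window shown holds no T-box core.

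Unscaled counts were recovered from the normalized ones, since 99.87% or more of each tumor's values above the floor of the table were multiples of a fixed step within 0.01 of a count. In 5 tumors the lowest value was 1 step, and in the other 7 it was the floor or several counts, so that their step was found by dividing the lowest value above the floor by whole numbers. Recovered counts and background limits rest on these steps. Recovered counts summed to between 106206 and 1519471 per tumor, and the factor by which the authors scaled them ran from 0.589 in olaparib tumor 1521 to 10.5 in olaparib tumor 1517. It was 0.810 to 0.824 in the combination tumors and 1.43 to 2.85 in the ADU-S100 tumors. A value was called near background where its recovered count was at or below the mean plus 2 SD of the 30 genes with the lowest mean count, none of them members, in the same tumor, a limit of 4.89 to 16.5 counts. Epithelial genes were well detected in every tumor, with summed normalized counts of the 3 epithelial genes measured of 10802 to 22177.

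Most of the cytotoxic genes were counted near the limit of the method. Of the 108 values (9 genes in 12 tumors), 43 were near background: 16 in the vehicle tumors, 11 in the ADU-S100 tumors, 9 in the olaparib tumors and 7 in the combination tumors. Gzma and Ctsw were above the limit in all 12 tumors, with 14 to 145 and 10 to 120 recovered counts. Gzmb was near background in 8 tumors, Gzmk, Prf1 and Fasl in 7 each, Gzmm in 6, Tbx21 in 5 and Eomes in 3. The highest recovered count of Eomes in any tumor was 21, of Gzmk 16 and of Fasl 21. All 9 members passed the filter of 20 normalized counts in at least 3 tumors. Only Gzma (1 tumor) and Ctsw (2 tumors) reached 20 in any vehicle tumor, so the other 7 passed through treated tumors alone. Their differences, tests and group separations, and the medians and counts over members, are therefore given below as descriptions.

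**Figure D1:**
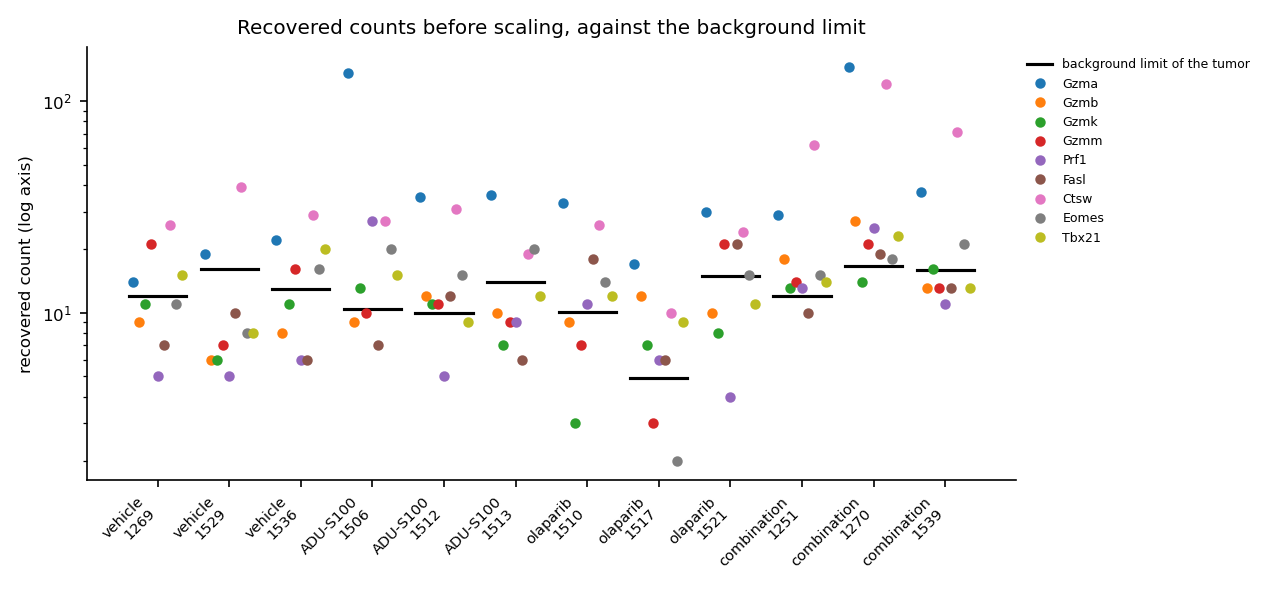
Recovered count before scaling (log axis) of the 9 genes in each of the 12 tumors, with the background limit of each tumor as a black line. Gzma and Ctsw lie above the line in all 12 tumors, while 43 of the 108 points lie at or below it.

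Eomes had a normalized count of 7.50, 11.9 and 11.1 in the vehicle tumors and 57.0, 29.5 and 28.5 in the ADU-S100 tumors. In the olaparib tumors it was 27.3, 21.0 and 8.84, and in the combination tumors 12.2, 14.8 and 17.2. All ADU-S100 tumors lay above every tumor of the vehicle, olaparib and combination groups. The combination tumors also lay above the vehicle tumors, the nearest at 12.2 against 11.9. Before scaling, Eomes had 8 to 16 counts in the vehicle, 15 to 20 in the ADU-S100, 2 to 15 in the olaparib and 15 to 21 in the combination tumors, so that the ADU-S100 and combination tumors overlapped there. The value of 21.0 in olaparib tumor 1517 was near background (limit 51.2 normalized). It rested on 2 counts, with an exact Poisson 95% interval of 0.24 to 7.22 counts, or 2.54 to 75.7 normalized. Its place below the ADU-S100 tumors is therefore uncertain. Intervals of this kind cover counting error only.

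Tbx21 had a normalized count of 10.2, 11.9 and 13.9 in the vehicle tumors and 42.7, 17.7 and 17.1 in the ADU-S100 tumors. It was 23.4, 94.3 and 6.48 in the olaparib tumors, and 11.3, 19.0 and 10.7 in the combination tumors. The ADU-S100 tumors lay above the vehicle tumors, and the olaparib and combination tumors overlapped them. In recovered counts the same groups overlapped, with 8 to 20 counts in the vehicle tumors and 9 to 15 in the ADU-S100 tumors, which were scaled by larger factors (1.43 to 2.85 against 0.682 to 1.49).

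Gzma, which encodes a tryptase of cytotoxic granules, had the widest range of the members. Its normalized count was 9.55, 28.2 and 15.2 in the vehicle tumors (mean 17.7 ± 9.58, SD, n = 3). It was 385, 68.8 and 51.4 in the ADU-S100 tumors (168 ± 188), 64.3, 178 and 17.7 in the olaparib tumors (86.7 ± 82.6), and 23.5, 119.5 and 30.3 in the combination tumors (57.8 ± 53.6). The ADU-S100 tumors lay above the vehicle tumors, led by tumor 1506 with 135 recovered counts. The olaparib and combination groups each held 1 tumor well above the other two, olaparib 1517 on 17 counts and combination 1270 on 145 counts.

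Gzmb, a granzyme that activates caspases, had a normalized count of 6.14, 8.92 and 5.54 in the vehicle tumors, all near background. It was 25.6, 23.6 and 14.3 in the ADU-S100 tumors, 17.5, 126 and 5.89 in the olaparib tumors, and 14.6, 22.3 and 10.7 in the combination tumors. The ADU-S100 and the combination tumors lay above all vehicle tumors. The 126 of olaparib tumor 1517 came from 12 recovered counts (exact Poisson 95% interval 6.20 to 21.0), and the 5.89 of olaparib tumor 1521 from 10. Combination tumor 1270 had the highest recovered count, 27.

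Gzmk and Gzmm, granzymes of less studied function, were close to the limit. Gzmk was 7.50, 8.92 and 7.62 in the vehicle tumors, 37.0, 21.6 and 9.99 in the ADU-S100 tumors, 5.84, 73.4 and 4.71 in the olaparib tumors, and 10.5, 11.5 and 13.1 in the combination tumors. Its ADU-S100 and combination tumors lay above the vehicle tumors, with margins of about 1 to 2 normalized counts at the nearest tumors. Gzmm ranged from 10.4 to 31.4 over the 12 tumors, and its groups overlapped in every comparison made.

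Prf1 had a normalized count of 3.41, 7.43 and 4.16 in the vehicle tumors, on 5, 5 and 6 recovered counts, all near background. It was 76.9, 9.82 and 12.8 in the ADU-S100 tumors, 21.4, 62.9 and 2.36 in the olaparib tumors, and 10.5, 20.6 and 9.02 in the combination tumors. The ADU-S100 and combination tumors lay above the vehicle tumors, and the counts above 20 were those of ADU-S100 tumor 1506 (27) and combination tumor 1270 (25), the same tumors in which Gzma was counted most.

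Fasl was 4.77, 14.9 and 4.16 in the vehicle tumors and 35.1, 62.9 and 12.4 in the olaparib tumors, where no value was near background. It was 19.9, 23.6 and 8.56 in the ADU-S100 tumors and 8.10, 15.7 and 10.7 in the combination tumors. The olaparib group was highest, but tumor 1521 lay below vehicle tumor 1529. Ctsw was 17.7, 58.0 and 20.1 in the vehicle tumors, 76.9, 60.9 and 27.1 in the ADU-S100 tumors, 50.7, 105 and 14.1 in the olaparib tumors, and 50.2, 98.9 and 58.2 in the combination tumors. All 3 treated groups overlapped the vehicle tumors, the ADU-S100 and combination groups only through vehicle tumor 1529. Olaparib tumor 1521 lay below all vehicle tumors. In recovered counts Ctsw separated the combination tumors (62, 120 and 71) from the vehicle tumors (26, 39 and 29), and the scaling factor of vehicle tumor 1529 was 1.49. Recovered counts are not adjusted for depth. Totals were 1339258 to 1491854 in the combination and 632152 to 1519471 in the vehicle tumors.

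**Figure D2:**
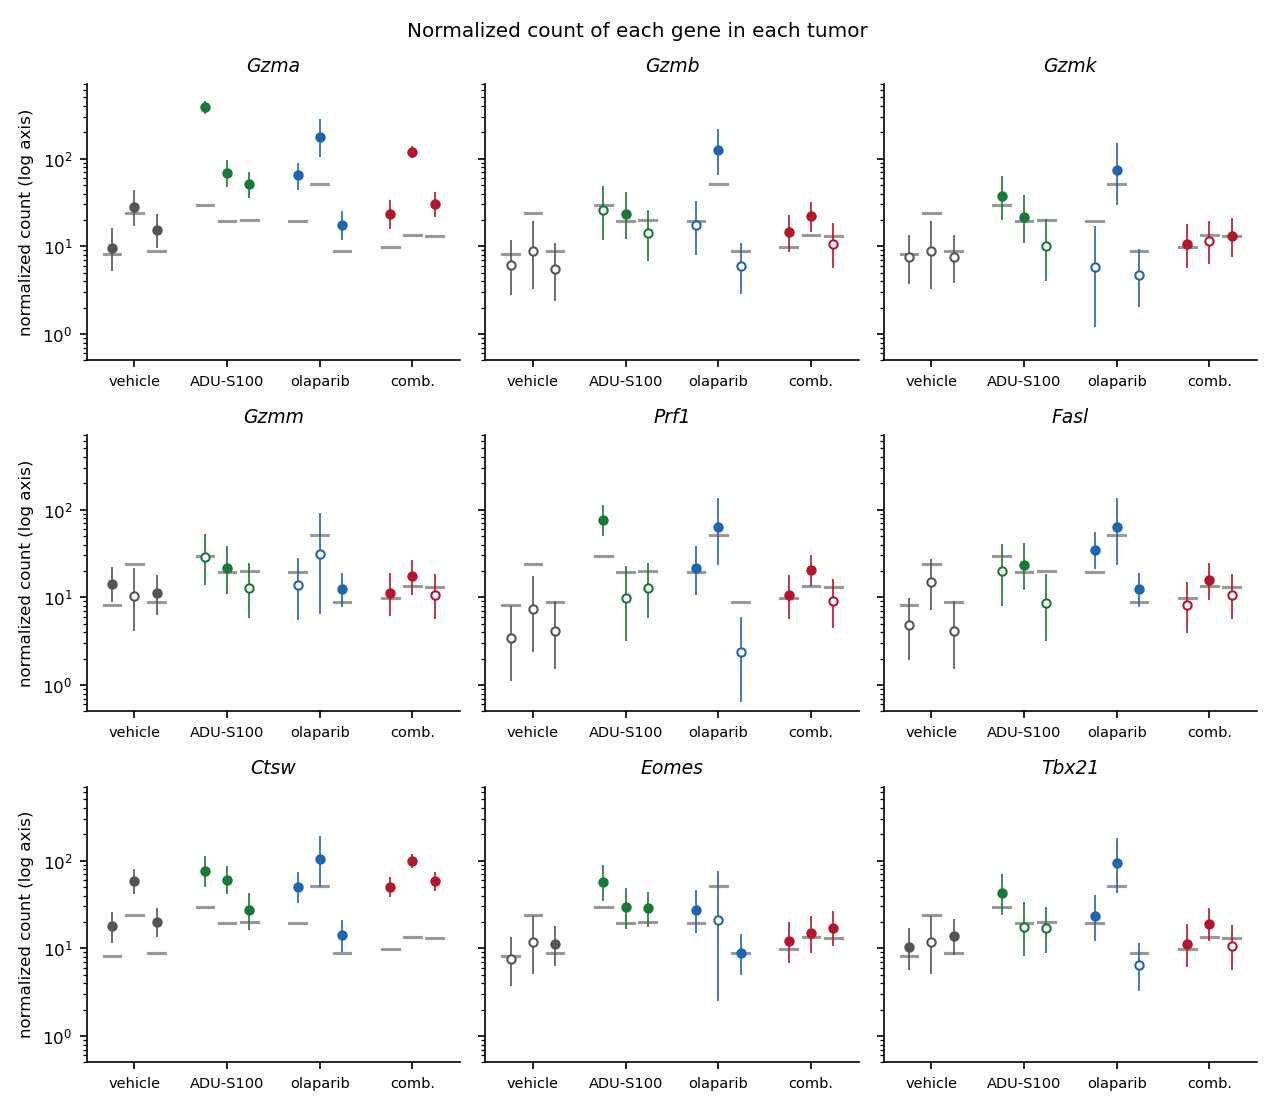
Normalized count (log axis) of each gene in each tumor by treatment group (comb., combination), with exact Poisson 95% intervals and the tumor's background limit as a gray line; open points are near background. Eomes in the ADU-S100 tumors (28.5 to 57.0) lies above all other tumors, and olaparib tumor 1517 carries the highest limit.

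The first question was what the STING agonist alone did to these genes. All 9 members were higher on average in the ADU-S100 tumors than in the vehicle tumors, with a median log2 difference of 1.23 against 0.44 for the 689 genes tested, of which 78.2% were higher. Gzma was higher by 2.71 ± 0.97 on the log2(normalized count + 1) scale (SE, limma, adjusted p = 0.809), a fold of 6.55, and by 1.82 without ADU-S100 tumor 1506. Eomes, near background in 2 of the 3 vehicle tumors, was higher by 1.77 ± 0.47. Prf1 (1.98 ± 0.99) and Gzmb (1.48 ± 0.83) were near background in all 3 vehicle tumors and in 2 of the 3 ADU-S100 tumors. Gzmk was also near background in all 3 vehicle tumors, so that the sizes of the differences of Eomes, Prf1, Gzmb and Gzmk are uncertain. Without tumor 1506 Prf1 stood at 1.09, Gzmk at 0.81 and Tbx21 at 0.51. Ctsw differed by 0.85 ± 0.72 (0.54 without vehicle tumor 1269 and 1.37 without vehicle tumor 1529) and Gzmm by 0.71 ± 0.45 (0.46 without tumor 1506). The groups did not overlap for 6 members, Gzma, Gzmb, Gzmk, Prf1, Eomes and Tbx21, against 13.9% of the genes tested. In recovered counts only Gzma of these stayed apart (14 to 22 against 35 to 135), against 1.45% of the genes tested. The median of the members was 0.22 under quantile normalization and 0.35 with the log2 scaling factor as a covariate, and under each of the 2 settings 8 of 9 members turned or were smaller by over 1.5 times. Gzma stood at 1.98 and 1.65 under them, Eomes at 0.84 and 1.42, Prf1 at 1.11 and 0.74, and Gzmb at 0.47 and 0.35. No member passed the threshold in limma (adjusted p under 0.05, 0.0% of the genes tested), nor in edgeR (quasi-likelihood, recovered counts). At an unadjusted p under 0.05, 2 members were higher, Eomes and Gzma, both with an adjusted p of 0.809, against 4.64% of the genes tested. Eomes reached the filter of 20 in all 3 ADU-S100 tumors, 2 olaparib tumors and no vehicle or combination tumor, so that it passed through the group in which it was high, and its place in this count is no support.

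The 30 lowest genes, which stand for background, were also higher in the ADU-S100 tumors, in 28 of 30 cases and with a median log2 difference of 0.90. Their median normalized count was 4.78 to 6.69 in the vehicle tumors, 9.27 to 17.1 in the ADU-S100 tumors, 4.13 to 31.4 in the olaparib tumors and 4.86 to 6.60 in the combination tumors. Gzma, Prf1, Eomes, Gzmb, Gzmk, Fasl and Tbx21 differed by more than that median, and Ctsw and Gzmm by less. The part of background in the members' differences was not tested.

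Olaparib alone was compared with vehicle next. All 9 members were higher on average, with a median log2 difference of 1.0 against 0.45 for all genes tested and 0.82 for the 30 lowest genes. Fasl differed by 2.01 ± 0.65 (adjusted p = 0.577), Gzma by 1.82 ± 0.97, Gzmb by 1.71 ± 0.83 and Prf1 by 1.55 ± 0.99. Of these, Gzma alone was above the background limit in the vehicle tumors, and Fasl, Gzmb and Prf1 were near background in all 3 of them, so that the sizes of their differences are uncertain. With the log2 scaling factor as a covariate the median was 0.11, all 9 members turned or were smaller by over 1.5 times, and Fasl stood at 1.15, Gzma at 0.58, Gzmb at 0.39 and Prf1 at 0.11. Under quantile normalization the median was 0.15, and 8 of 9 members turned or were smaller by as much. Eomes (0.74 ± 0.47), Gzmk (0.67 ± 0.83), Ctsw (0.61 ± 0.72) and Gzmm (0.53 ± 0.45) differed less than the lowest genes did. For Eomes the difference was 0.42 without olaparib tumor 1510 and 1.18 without olaparib tumor 1521. In no member did the groups separate (3.77% of the genes tested did so in this direction). No member passed the adjusted threshold in limma (0.0%) or edgeR, and 1, Fasl, had an unadjusted p under 0.05, against 5.81% of the genes tested.

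The olaparib tumors had the largest SD of log2 values of the 4 groups for all 9 members, from 0.70 (Gzmm) to 2.15 (Prf1). For 8 of the 9 members tumor 1517 was the highest of the 3 and tumor 1521 the lowest, the exception being Eomes. Tumor 1517 had the lowest total and the largest factor, and tumor 1521 the smallest factor. Without tumor 1521, Fasl was higher by 2.62 (adjusted p = 0.0345) and Gzmb by 2.65 (adjusted p = 0.0487), and 55 of the 689 genes passed. Both members passed the filter through treated tumors alone and were near background in all 3 vehicle tumors, so that these calls are no support. Without tumor 1517 the differences of Gzmb (0.55), Prf1 (0.59), Gzma (1.03), Gzmm (0.13) and Tbx21 (0.07) were smaller, and those of Gzmk (-0.52) and Ctsw (-0.03) were below 0.

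The combination was then set against vehicle. All 9 members were higher on average, with a median log2 difference of 0.63 against 0.21 for all genes tested and 0.05 for the 30 lowest genes. That median ran from 0.30 (pseudocount of 10) to 1.32 (filter at 50, with fewer members) over the settings tried, and under quantile normalization it was 0.49, with 5 of 9 members turned or smaller by over 1.5 times (Ctsw at 0.69). Gzma was higher by 1.40 ± 0.97 (adjusted p = 0.830), a fold of 2.64, and by 0.70 without combination tumor 1270. Prf1 and Ctsw were higher by 1.23 each (± 0.99 and ± 0.72, adjusted p = 0.934 and 0.705), with Prf1 near background in all 3 vehicle tumors. Gzmb, also near background in the vehicle tumors, was higher by 1.06 ± 0.83, Eomes by 0.51 ± 0.47 (0.32 without vehicle tumor 1269) and Gzmk, near background in all 3 vehicle tumors, by 0.50 ± 0.83. Fasl was higher by 0.63 ± 0.65, by 1.15 without vehicle tumor 1529 (as was the median of the members), and by 0.42, 0.34 and 0.40 without vehicle tumor 1269, vehicle tumor 1536 and combination tumor 1270. Tbx21 (0.14 ± 0.76) and Gzmm (0.11 ± 0.45) were near 0, and both were below 0 under equal medians, quantile normalization and edgeR with TMM normalization. The groups did not overlap for Gzmb, Gzmk, Prf1 and Eomes, 4 of 9 members, against 18.4% of the genes tested. In recovered counts they did not overlap for Gzma, Gzmb, Gzmk, Prf1 and Ctsw, 5 of 9 members, against 22.6% of the genes tested. No member passed the adjusted threshold in limma (0.0%) or edgeR, and 0 members had an unadjusted p under 0.05, against 7.55% of the genes tested in this direction.

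**Figure D3:**
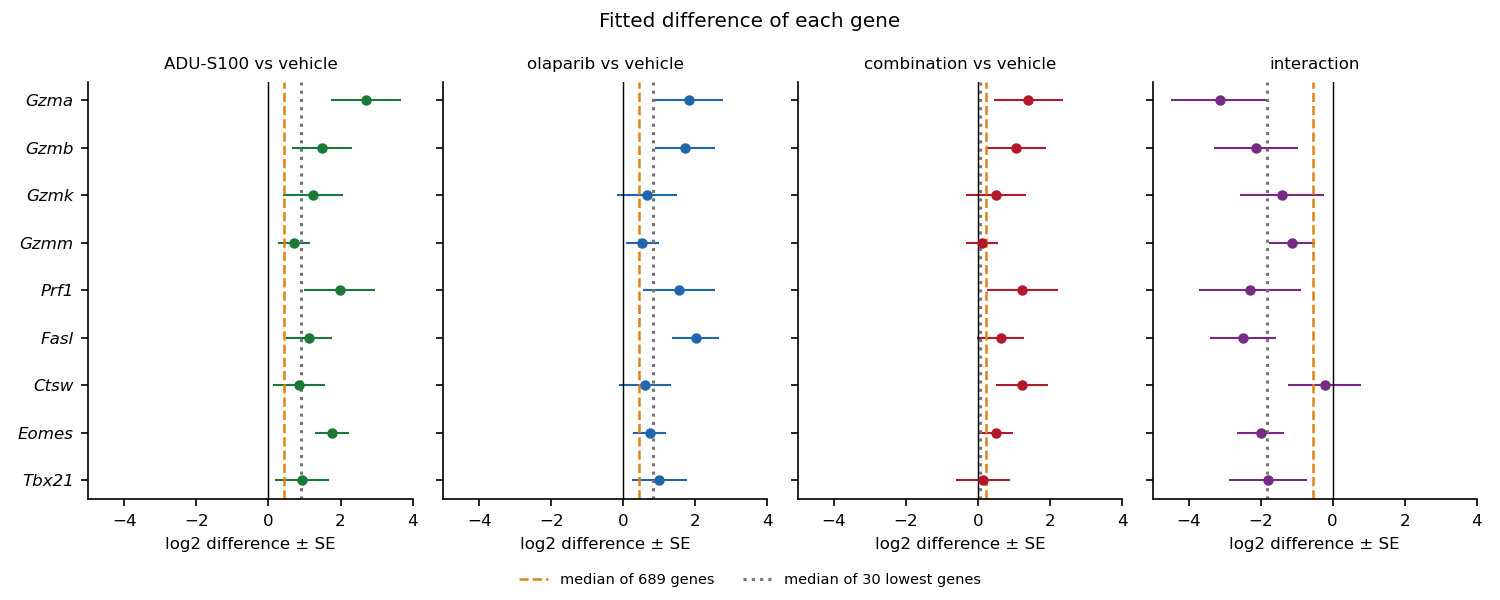
Fitted log2 difference (± SE) of each gene in the ADU-S100, olaparib and combination tumors against vehicle, and the interaction (combination minus olaparib, less ADU-S100 minus vehicle), with the medians of the 689 genes tested and of the 30 lowest genes. All 9 members lie above 0 in the first 3 panels and below 0 in the last, where the median of the 30 lowest genes is -1.81.

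With all treated tumors pooled, the 9 members were higher than in vehicle by a median of 1.0, against 0.39 for all genes tested and 0.54 for the 30 lowest genes. Eomes was higher by 1.0 ± 0.38, Gzma by 1.98 ± 0.79 and Fasl by 1.26 ± 0.53. These 3 members had an unadjusted p under 0.05, as did 5.95% of the genes tested in this direction. In limma the adjusted p of each was 0.697, and no member (0.0% of genes) passed. The median was 0.32 under quantile normalization and 0.64 with the log2 scaling factor as a covariate. Under these settings Gzma stood at 1.41 and 1.25, Eomes at 0.32 and 0.77, and Fasl at 0.59 and 0.75. These comparisons share the vehicle tumors.

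The combination was also compared with each drug alone. Against ADU-S100, 8 of 9 members were lower on average in the combination tumors, with a median of -0.74 against -0.22 for all genes tested and -0.81 for the 30 lowest genes. The sign of that median turned under quantile normalization (0.06) and with the log2 scaling factor as a covariate (0.32), and without ADU-S100 tumor 1506 it was -0.34. Under quantile normalization 7 of 9 members turned or were smaller by over 1.5 times, and 4 of these turned. With the covariate 7 of 9 also did so, and 5 of these turned. Eomes differed by -1.26 ± 0.47 on the log2 scale (limma 95% interval -2.28 to -0.24, adjusted p = 0.492), and by -0.59 under quantile normalization. Its groups did not overlap in normalized counts, and they overlapped in recovered counts (15 to 20 in the ADU-S100 and 15 to 21 in the combination tumors). It was the 1 member with an unadjusted p under 0.05 (4.64% of the genes tested) and the 1 member with groups apart (20.9% of the genes tested), and since it reached the filter in all 3 ADU-S100 tumors and no combination tumor, neither is support. Gzma differed by -1.31 ± 0.97, with an interval from -3.43 to 0.81. Ctsw alone was higher, by 0.39 ± 0.72 with an interval from -1.20 to 1.97, and by 1.37 with the log2 scaling factor as a covariate. No member passed the adjusted threshold (0.0%) in limma or edgeR.

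Against olaparib, 8 of 9 members were again lower on average in the combination tumors, with a median of -0.41 against -0.15 for all genes tested and -0.82 for the 30 lowest genes. Fasl differed by -1.37 ± 0.65 (95% interval -2.80 to 0.05, adjusted p = 0.594), and Ctsw was higher by 0.62 ± 0.72 (-0.96 to 2.21), and by 1.76 with the log2 scaling factor as a covariate. No member had groups apart (1.74% of the genes tested), an unadjusted p under 0.05 (2.76%) or an adjusted p under 0.05 in limma (0.0%) or edgeR. The sign of the median turned without olaparib tumor 1517 (0.37), under quantile normalization (0.18) and with the log2 scaling factor as a covariate (0.79). Under quantile normalization 7 of 9 members turned or were smaller by over 1.5 times, and 4 of these turned. With the covariate 8 of 9 did so, and 7 of these turned.

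The interaction asks whether the effect of ADU-S100 differed in the presence of olaparib. It was below 0 for all 9 members, with a median of -2.00 against -0.55 for all genes tested and -1.81 for the 30 lowest genes, of which 0 were above 0. Gzma stood at -3.12 ± 1.37, Fasl at -2.50 ± 0.92 and Eomes at -2.00 ± 0.66. These 3 members had an unadjusted p under 0.05, as did 9.0% of the genes tested in this direction. Ctsw stood nearest to 0, at -0.22 ± 1.02. In limma the adjusted p was 0.346 for Fasl and Eomes and 0.435 for Gzma, and no member (0.0% of genes) passed. Without olaparib tumor 1521, Eomes (-2.44, adjusted p = 0.0225) and Fasl (-3.12, adjusted p = 0.0353) passed, among 86 of the 689 genes. Both reached the filter of 20 in ADU-S100 and olaparib tumors alone, the groups whose height makes the interaction negative, so that these calls are no support. Without olaparib tumor 1517 the median of the members was -0.96, with Fasl at -1.99 and Eomes at -1.86, and no member passed. The median was -0.47 under quantile normalization, with Fasl at -0.80 and Eomes at -0.47, and 0.41 with the log2 scaling factor as a covariate, where Gzma stood at -0.72, Fasl at -0.83 and Eomes at -1.22.

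The cytotoxic genes are made by T cells and NK cells, and in whole-tumor RNA fewer such cells and less RNA per cell cannot be told apart. Both cell types' receptor genes were higher on average in the treated groups, as were 78.2% (ADU-S100), 74.6% (olaparib) and 65.3% (combination) of all genes tested. Of the 15 T cell receptor and coreceptor genes, none was at 0 in any tumor, which does not place them above background. Cd8a had 8 to 10 recovered counts in the vehicle and 4 to 13 in the olaparib tumors, all near background. It had 6 to 11 in the ADU-S100 tumors, near background in tumors 1506 and 1513, and 18 to 43 in the combination tumors. The 15 genes summed to 245.2 to 474 normalized counts in the vehicle, 408 to 1043 in the ADU-S100, 296 to 1195 in the olaparib and 583 to 899 in the combination tumors. Of the 13 that were tested, 13 were higher in the combination, 12 in the ADU-S100 and 11 in the olaparib tumors than in vehicle, with medians of 1.24, 0.87 and 0.86. Cd4 was higher by 1.75 ± 0.52 in the combination tumors (adjusted p = 0.278) and Lck by 0.11 ± 0.38. The 21 NK cell receptor genes summed to 281 to 444 in the vehicle, 498 to 1410 in the ADU-S100, 272 to 1876 in the olaparib and 599 to 736 in the combination tumors, and Klra7 alone was at 0, in 2 values. Of the 13 tested, 11, 12 and 13 were higher in the combination, ADU-S100 and olaparib tumors, with medians of 0.92, 1.31 and 0.88. Ncr1, a receptor of NK cells, was 13.0, 17.8 and 10.4 in the vehicle tumors and 225, 39.3 and 30 in the ADU-S100 tumors. It was 25.3, 147 and 14.1 in the olaparib tumors and 21.9, 73.4 and 27.9 in the combination tumors, so that both the ADU-S100 and the combination tumors lay above all vehicle tumors. Within the ADU-S100 group it was highest in tumor 1506, as were Gzma and Prf1. The NK receptor genes with the highest means, Klra2 and Klrd1, were higher than in vehicle by 0.96 ± 0.51 and 1.25 ± 0.92 in the ADU-S100 tumors and by 1.5 ± 0.51 and 0.87 ± 0.92 in the combination tumors. The part of cell number in the members' differences was not tested, and no gene of either list passed the adjusted threshold in any comparison.

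The members were therefore also described relative to the CD3 genes (Cd3d, Cd3e, Cd3g and Cd247, the signaling chains of the T cell receptor) of the same tumor, as the log2 level minus the mean log2 level of these 4 genes. Cd3e was itself near background in 2 vehicle tumors and all 3 ADU-S100 tumors (5 to 13 counts in the latter, against 36 to 85 in the combination tumors), and the other 3 genes in none. With these values and those of the members near background, the sizes of the relative levels are uncertain. Relative to CD3, 8 of 9 members were higher in the ADU-S100 than in the vehicle tumors (median difference 0.47), 5 of 9 in the olaparib tumors (0.06) and 1 of 9 in the combination tumors (-0.68). For Gzma the relative level was -1.02 to 0.14 in the vehicle tumors and 0.94 to 2.57 in the ADU-S100 tumors, which did not overlap. Eomes was at -1.35 to -0.29 in the vehicle, -0.16 to 0.12 in the ADU-S100 and -2.35 to -1.36 in the combination tumors, again without overlap. Eomes was near background in 2 of the vehicle tumors. Over all 9 members, the ADU-S100 tumors lay above all vehicle tumors relative to CD3 for Gzma, Prf1 and Eomes (3.21% of 685 genes did so), and the olaparib tumors for Gzma and Fasl (1.9%). The combination tumors lay below all vehicle tumors for Gzmm, Fasl, Eomes and Tbx21, 4 of 9 members, as did 46.3% of the 685 genes. Without Cd3e in the reference the median differences were 0.37, 0.08 and -0.53. The ADU-S100 tumors then lay above vehicle for Gzma and Eomes (2.63% of genes), the olaparib tumors for Gzma, Gzmb and Fasl (2.48%), and the combination tumors below vehicle for Gzmm, Fasl and Tbx21 (40.7%). Ctsw was at -0.19 to 0.84 in the vehicle and 0.28 to 0.34 in the combination tumors, which overlapped. With the pan-leukocyte gene Ptprc as the reference, 5 of 9 members were higher in the combination tumors (0.09).

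**Figure D4:**
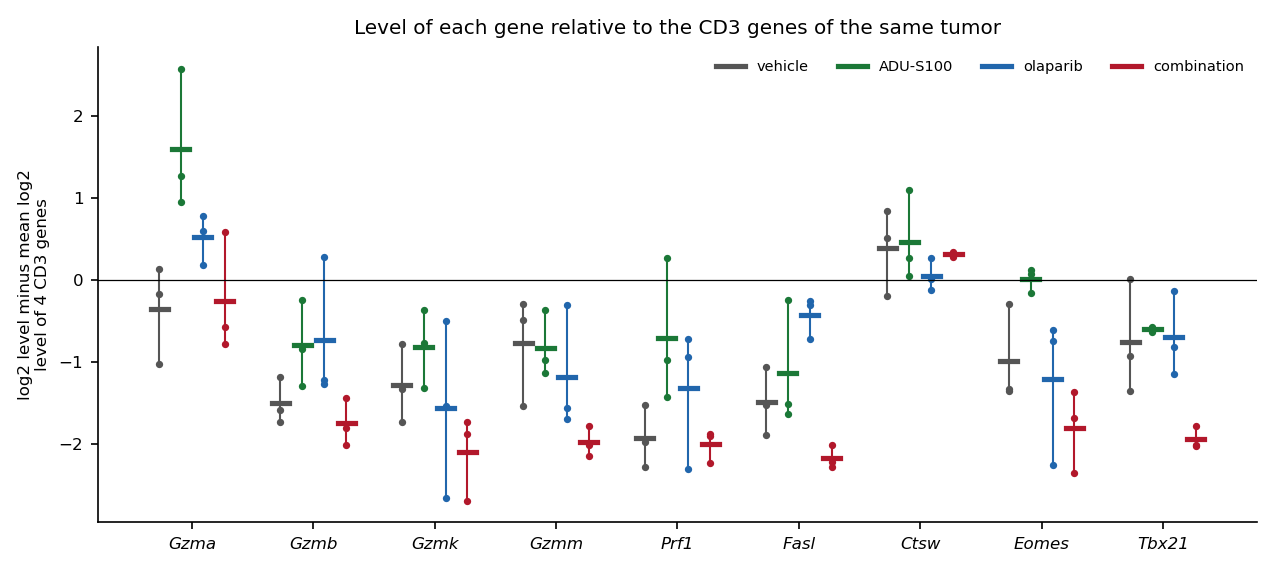
Log2 level of each gene minus the mean log2 level of Cd3d, Cd3e, Cd3g and Cd247 in the same tumor, by group; small points are the 3 tumors and thick bars their mean. The combination tumors have the lowest mean for every gene except Gzma and Ctsw, and the ADU-S100 tumors of Gzma and Eomes lie above all vehicle tumors.

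Genes that work with the members were described from lists. Of 14 tested partners of the cytotoxic pathway (granule proteins, death receptors and their caspases, cytokines and chemokines of killer cells), 10 were higher in the ADU-S100 tumors than in vehicle (median 0.34), 9 in the olaparib tumors (0.63) and 11 in the combination tumors (0.77), which are 71.4%, 64.3% and 78.6% of them against the 78.2%, 74.6% and 65.3% of all genes. Lamp1, a granule and lysosome membrane protein used to mark degranulation, differed from vehicle by -0.07 ± 0.47, -0.31 ± 0.47 and 0.28 ± 0.47. Of 23 tested regulators of type 1 lymphocyte responses, 21, 21 and 19 were higher (medians 0.38, 0.92 and 0.79). The other 6 tested T cell lineage factors were higher in 6, 6 and 5 cases (0.71, 1.09 and 0.43). No gene of these lists passed the adjusted threshold.

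Marker genes of other cell types were read in the same order of ADU-S100, olaparib and combination against vehicle. Genes of leukocytes in general were higher in 4, 2 and 3 of 4 cases, B cell genes in 2, 2 and 2 of 2, and macrophage and monocyte genes in 8, 3 and 4 of 10. Genes listed for plasmacytoid dendritic cells were higher in 3 of 3 cases each. The most abundant of them were Bst2 (mean 2171 in the vehicle and 5137 in the combination tumors) and Irf7 (1055 and 3272). Whether they were expressed by such cells or by others was not tested. Mast cell and basophil genes were higher in 3, 3 and 1 of 5 cases, and epithelial genes in 2, 2 and 3 of 3. Genes of stroma and endothelium were higher in 4, 1 and 0 of 10, with medians of -0.02, -0.80 and -0.91. The 10 stromal and endothelial genes summed to 16471 to 31216 in the combination tumors and to 19122 to 99688 in the vehicle tumors. The part of such differences in cell makeup in the members' values was not tested.

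Across the 12 tumors the members varied together. The Pearson r of log2 values over the 36 pairs ran from 0.545 (Ctsw and Eomes) to 0.942 (Gzma and Prf1), with a median of 0.781 against 0.302 for all gene pairs. All genes of a tumor share its scaling factor, and r with the log2 factor was 0.622 (Eomes) to 0.926 (Tbx21) for the members against a median of 0.591 for all genes tested. The 5 genes most like the mean standardized level of the members were Hcst (r = 0.960), Cd247 (0.958), Cd96 (0.953), Amica1 (0.949) and Klrd1 (0.945). For single members the most similar gene was Il2rb for Gzma (0.965), Zap70 for Prf1 (0.966), Cd40lg for Gzmk (0.956), Prkcd for Gzmb (0.955) and Prg2 for Gzmm (0.942). It was Tbx21 with Sbno2 (0.940), Ctsw with Cxcr3 (0.938), Fasl with Nfkb2 (0.917) and Eomes with C3ar1 (0.886). All these values are descriptions over 12 tumors of 4 groups.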

How the data were processed

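Total RNA of 12 tumors was counted with the nCounter panel. The authors deposited normalized counts, a signal on a linear scale, made with nSolver 4.0, in which quality checks and a background correction were followed by scaling to spiked positive controls and to 8 housekeeping genes. Groups came from the labels, which number each tumor and do not say what a number marks. Whether tumors share a donor is not given in the sources used here, so p-values measure the spread between these tumors.

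Recovered counts are the deposited signal divided by its step per tumor, with the floor of 1 set to 0. The test was limma 3.58.1 (lmFit, eBayes; R 4.3.3) on log2(normalized count + 1), which understates changes of low genes, over 689 genes with at least 20 in at least 3 tumors, with 1 mean per group over 12 tumors and Benjamini-Hochberg adjustment in each of 7 comparisons (threshold 0.05). Its fold changes are on that scale. edgeR 4.0.16 quasi-likelihood tests used the recovered counts, with the authors' factors or TMM. Scripts were tested on simulated data. The named genes were the 9 members, the 2 genes with the highest mean of a list, those past the threshold, and those most like the members by Pearson r. Not every gene this rule names is reported here. Ncr1, Klra7 and Cd8a were named with their values known. The members, lists and tests were chosen with earlier results of these data known. Lists were the T cell receptor, NK receptor, cytotoxic partner, type 1 regulator, T cell lineage, leukocyte, B cell, macrophage, plasmacytoid dendritic, mast cell, epithelial and stromal genes. The count of total RNA says how many probes were counted, not how many cells were sampled. Alternatives were a pseudocount of 10, other filters, scalings and tests, a background subtraction, covariates, and leaving out each tumor. The 30 lowest genes, the groups that stood apart in recovered counts or relative to CD3, and the reference without Cd3e were set beside the members after the data were seen. Flow cytometry and tumor volumes were not used here.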

Additional observations from a re-analysis of the deposited data

Results flagged for a closer look

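For 6 members every ADU-S100 tumor lay above the mean of the vehicle tumors, while every combination tumor lay below the mean of the olaparib tumors, as was so for 26.4% of the 689 genes tested. The interaction, which is the difference between these 2 effects of ADU-S100, was -2.50 for Fasl, -2.12 for Gzmb, -2.00 for Eomes, -1.79 for Tbx21, -1.40 for Gzmk and -1.13 for Gzmm on the log2 scale. In limma none of the 6 passed (adjusted p = 0.346 for Fasl and Eomes, 0.439 for Gzmb, Tbx21 and Gzmm, and 0.598 for Gzmk). The deviations from the vehicle mean were 1.43 to 2.40 for Eomes and 0.11 to 1.2 for Gzmm, and those from the olaparib mean were -0.48 to -0.01 and -0.67 to -0.02. Without olaparib tumor 1517 the interaction was -1.99 for Fasl, -0.96 for Gzmb, -1.86 for Eomes, -0.85 for Tbx21, -0.21 for Gzmk and -0.73 for Gzmm. With the log2 scaling factor as a covariate it was above 0 for Gzmb (0.44), Gzmk (1.01) and Tbx21 (0.41), and under quantile normalization for Gzmk (0.27) and Gzmm (0.60). The olaparib mean includes tumor 1517, with the largest scaling factor, and the 30 lowest genes had a median interaction of -1.81.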

How the results depend on the processing

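No member passed the adjusted threshold in any of the 7 comparisons under the alternatives run for it, except without olaparib 1521. The methods' t-test, with either adjustment, and the fits on 2 groups were run for the 5 comparisons of 2 groups. Of the 108 member values, 52 or 38 were near background with the limit set by the highest of the 30 lowest genes or by 15 genes. Scaling each tumor to the same median brought the median of all genes from 0.44 to 0.03 (ADU-S100 against vehicle), from 0.45 to 0.10 (olaparib), from 0.21 to 0.01 (combination) and from -0.55 to 0.00 (interaction). It turned Gzmm (-0.10) and Tbx21 (-0.07) in the combination against vehicle and Ctsw in the interaction (0.33). Quantile normalization gave a member median of 0.22 for ADU-S100 against vehicle, 0.06 for the combination against ADU-S100, 0.18 against olaparib and -0.47 for the interaction. Under it the signs turned for Gzmm (-0.17) and Tbx21 (-0.17) in the combination against vehicle, for Gzmm (-0.42) and Tbx21 (-0.12) with ADU-S100, and for Gzmk (-0.21), Gzmm (-0.34), Ctsw (-0.01) and Eomes (-0.12) with olaparib. They also turned for Gzmm (-0.31) and Tbx21 (-0.05) in the pooled treated tumors, and for Gzmk (0.27), Gzmm (0.60) and Ctsw (0.62) in the interaction. The log2 scaling factor as a covariate gave member medians of 0.35 for ADU-S100 and 0.11 for olaparib against vehicle, 0.32 and 0.79 for the combination against ADU-S100 and olaparib, and 0.41 for the interaction. With it the signs turned for Ctsw (-0.04) and Tbx21 (-0.04) with ADU-S100, for Gzmk (-0.57), Ctsw (-0.43) and Tbx21 (-0.13) with olaparib, and for Gzmb (0.44), Gzmk (1.01), Prf1 (0.51), Ctsw (1.80) and Tbx21 (0.41) in the interaction. edgeR with TMM turned Gzmm (-0.29) and Tbx21 (-0.21) in the combination against vehicle, Gzmm in the pooled treated tumors (-0.04) and Ctsw in the interaction (0.47). Background subtraction turned Gzmm with olaparib (-0.77), in the pooled treated tumors (-0.09) and in the interaction (0.61), and Ctsw in the interaction (0.15). The number series, 12 or 15 by the leading digits of a tumor's number, ran partly with treatment, and what it marks is not given. Series 12 held vehicle tumor 1269 and combination tumors 1251 and 1270, and series 15 held all other tumors. As a block it turned Gzmm in the combination against vehicle (-0.02) and Ctsw in the interaction (0.10). With the block, 11 genes had an unadjusted limma p under 0.05 in the combination against ADU-S100, and 63 without it. A filter at 50 left fewer members and gave a median of 0.11 for the combination against olaparib. Relative to Cd3e alone, which was near background in 5 of the 12 tumors so that these sizes are uncertain, the member medians against vehicle were 0.74 (ADU-S100), -0.01 (olaparib) and -1.12 (combination), relative to Ptprc 0.80 (olaparib) and 0.09 (combination), and with a pseudocount of 10 the CD3 value was 0.19 (ADU-S100). Leaving out 1 tumor moved the number of members called from 0 to 2 with olaparib and in the interaction, both without olaparib 1521. The member median ranged from 0.55 to 1.90 with olaparib, from -1.26 to 0.37 for the combination against olaparib and from -2.69 to -0.96 in the interaction, each time between the fits without olaparib 1521 and without olaparib 1517. In the same way Gzmk ranged from -0.52 to 1.33 and Ctsw from -0.03 to 1.37 with olaparib, and Ctsw from -0.14 to 1.26 against olaparib and from -0.98 to 0.42 in the interaction. Ctsw ranged from -0.05 (without ADU-S100 1513) to 0.69 for the combination against ADU-S100. Without combination 1270, Gzmm (-0.10) and Tbx21 (-0.11) lay below vehicle, and they reached 0.23 and 0.28 without vehicle 1269 and combination 1539. The cause of these changes was not tested. No paired analysis was possible because each tumor number occurs once. Counts of 7 of the 9 members were near background in 3 to 8 tumors.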
